A study of Mus musculus with 14 samples.

Results

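The comparison was between day 4 and day 2 of differentiation of mouse neural stem cells, and it used 6 of the 14 libraries of the series. Total RNA was sequenced from cells of the OG2 strain at passage 8, a mouse strain known for carrying a green fluorescent reporter of Pou5f1. At each day there was 1 library of NC cells, 1 of cells with Naloxone, an opioid receptor antagonist, and 1 of cells with Damgo, a peptide agonist of the mu opioid receptor. The 3 day 4 libraries were compared with the 3 day 2 libraries within treatment, and NC was also compared on its own. The labels do not spell out NC, which carries neither drug name, and give no doses or medium. The fit also held the undifferentiated and day 8 libraries of the same treatments, 12 libraries in all. Each condition was a single library, so every p-value measures a spread estimated over those 12 libraries, which may be technical.

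Neural stem cells kept as dividing cultures lose proliferation when growth factors are withdrawn, and give rise to astrocytes, oligodendrocytes and neurons. FGF and EGF act through receptor tyrosine kinases and ERK, which induces its own inhibitors, the Sprouty, Spred and Dusp proteins. Notch, Wnt and BMP signals bear on the choice between renewal and the glial and neuronal fates.

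Of the genes of newly formed oligodendrocytes 9 of 17 rose by day 4 and 4 fell, and of young neuron genes 13 of 26 rose and 3 fell. Astrocyte genes were divided, with 9 of 26 higher and 8 lower. These shares were not far above those of all tested genes, of which 27.1% rose and 24.8% fell. Gfap, the intermediate filament of astrocytes, was 64.5-fold higher, and Mbp, a structural protein of myelin, 19.8-fold higher. Of 77 measured cytosolic ribosomal protein genes 76 fell, and of 26 measured G2 and M phase genes 18 fell and 0 rose, where 24.8% of all tested genes fell. Genes of cholesterol synthesis (17 of 24) and of fatty acid synthesis (12 of 12) rose, where 27.1% of all tested genes rose. In bulk RNA, fewer cells of a type and less RNA per cell cannot be told apart, and this holds for every group described.

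The 6 libraries held 4143030 to 7635162 expected counts, so 3 counts, the smallest number taken as detection here, corresponded to 0.379 to 0.695 CPM, the count scaled to the size of the library. Of 13144 genes tested with edgeR's quasi-likelihood test, 6824 (51.9%) were called at a Benjamini-Hochberg adjusted p under 0.05, 3564 (27.1%) higher and 3260 (24.8%) lower. Of the called genes 2250 (17.1% of all tested) changed at least 2-fold, 1625 higher and 625 lower. The day 4 values of 29.2% of all tested genes all lay above, and those of 29.6% all below, the day 2 values, against which a lack of overlap in single genes is to be read. Values per library are given below in the order NC, Naloxone and Damgo, in CPM scaled by TMM, and a fitted change is a log2 ratio, day 4 over day 2, with its standard error.

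The day 2 Naloxone and Damgo libraries stood apart from day 2 NC. Across 10824 genes, their log2 difference from NC at day 2 correlated with the GC content of the transcript at r = 0.61 and 0.60, and with log2 length at -0.41 and -0.39. At day 4 the same correlations with GC were -0.04 and -0.03. In the decile of genes with the lowest GC content, the median change from day 2 to day 4 was 0.27 in the NC pair, 1.46 in the Naloxone pair and 1.14 in the Damgo pair, as the plot of change against GC content shows. Genes at least 2-fold higher numbered 395 (3.63% of 10887 genes with a mean of at least 5 CPM) in the NC pair, 1788 in the Naloxone pair and 1475 in the Damgo pair. Genes at least 2-fold lower numbered 406 (3.73%), 480 and 490. With both day 2 drug libraries left out, 1347 genes (10.2%) were called higher and 1625 (12.4%) lower. For most lists, counts or medians are therefore given also for that fit, for the NC pair or for both. The NC pair is 1 library a side and has no test. The fit without the day 2 drug libraries holds 1 day 2 library, so its spread comes from the other stages. Its calls do not cover the spread at day 2, and a call lost there is not by itself a lost change. With the trend of GC content and length removed, 6544 or 6273 genes were called, depending on the reference. These were partly other genes. Of the 6824 genes first called, 5465 or 4568 were then called in the same direction, and 208 or 652 changed sign. List counts from those fits are given where the count in the direction of most called members moved by over 1.5 times.

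**Figure D1:**
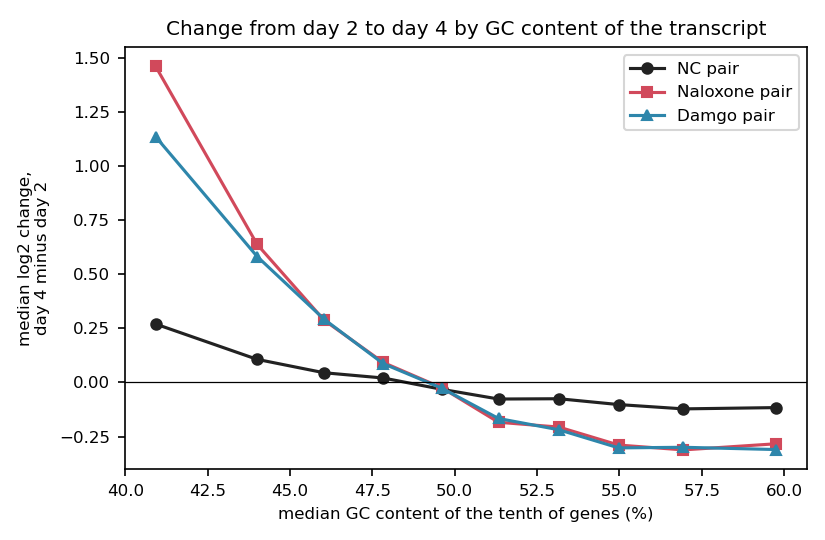
Median log2 change from day 2 to day 4 (vertical axis) in deciles of genes ordered by transcript GC content (horizontal axis, median percent of each decile), with 1 line per treatment pair. The Naloxone and Damgo lines run from 1.46 and 1.14 in the lowest decile to -0.28 and -0.31 in the highest, while the NC line runs from 0.27 to -0.12.

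List counts are to be read against the 27.1% of all tested genes that rose and the 24.8% that fell. The gene lists differed in how closely the 3 pairs matched. The ERK feedback list had medians near -1.5 in each pair, while the young neuron, synapse, BMP and oxidative phosphorylation lists had larger medians in size in the drug pairs than in the NC pair. The median over all tested genes was 0.01. Scaling by the deposited TPM values in place of TMM moved that median to 0.22, and 5154 genes (74.9% of the called) were then higher and 1724 lower, against 52.2% higher with TMM. Under that scaling the medians of the lists for the ATF4 and unfolded protein response (-0.02 to 0.20), matrix and integrin (-0.16 to 0.05) and DNA methylation (-0.03 to 0.19) changed sign, so no direction is given for them as groups.

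**Figure D2:**
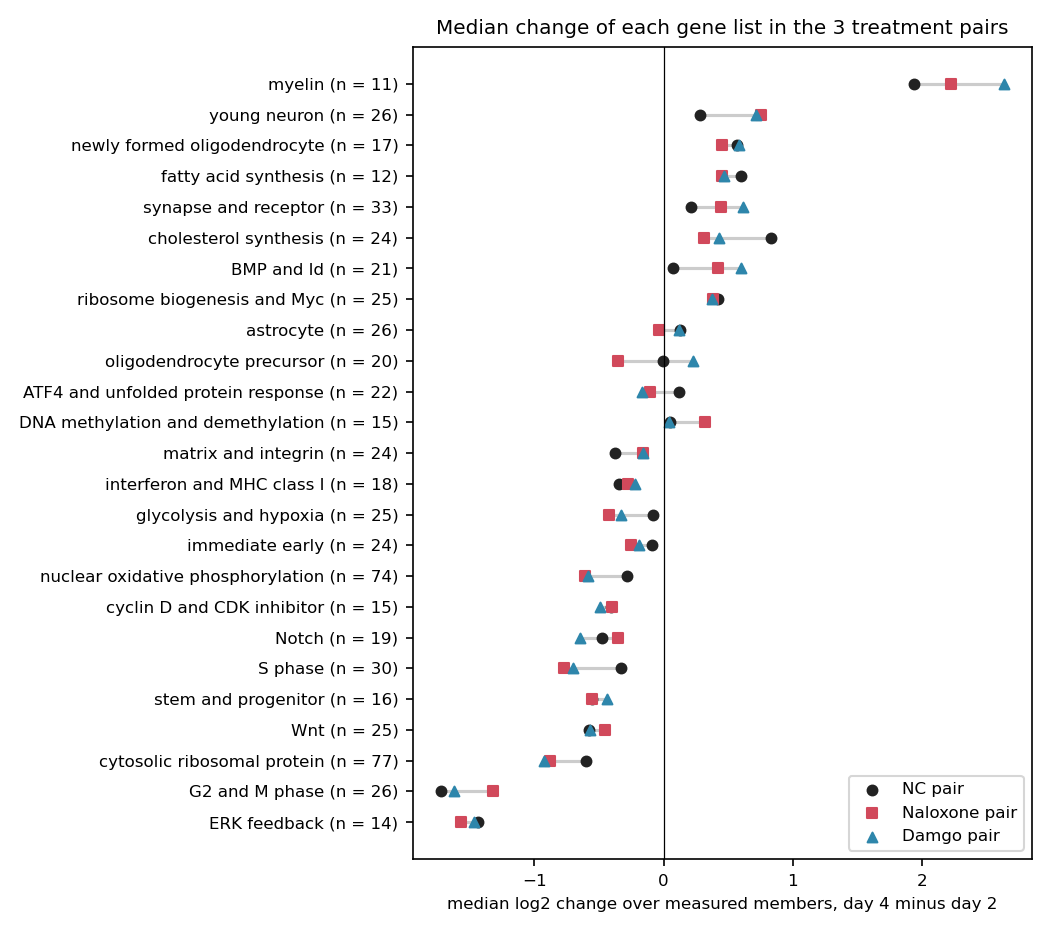
Median log2 change over the measured members of each gene list (horizontal axis), for the NC pair (circles), Naloxone pair (squares) and Damgo pair (triangles). Myelin genes lie farthest to the right in each pair, and ERK feedback and G2 and M phase genes farthest to the left.

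Among astrocyte genes, 9 of 26 measured rose and 8 fell, with a median of 0.07. These shares were not far above the 27.1% and 24.8% of all tested genes. Without the day 2 drug libraries 7 rose and 5 fell, and without the day 4 Naloxone library 5 rose and 5 fell. Leaving out day 2 Naloxone, day 2 Damgo or day 4 Damgo left 4 or 5 called lower. The members that rose most make up the filament, the water channel and the junctions of astrocytes. Gfap was at 8.85, 6.70 and 8.26 CPM at day 2 and 461, 519 and 551 CPM at day 4. No day 4 library overlapped any day 2 library, and the fitted change was 6.01 ± 0.22 (edgeR adjusted p = 1.9e-07). The NC pair alone gave 5.65, and the fit without the day 2 drug libraries 5.78. Gja1, which encodes connexin 43 of astrocyte gap junctions, was at 214, 214 and 206 CPM at day 2 and 1301, 1233 and 1311 CPM at day 4, a change of 2.60 ± 0.08 (edgeR adjusted p = 7.4e-08). Its 3 pairs were nearly equal, and the NC pair gave 2.60. Clu, a secreted chaperone, was at 49.5, 59.6 and 47.0 CPM at day 2 and 277, 273 and 283 CPM at day 4, a change of 2.42 ± 0.13.

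Aqp4, the water channel of astrocyte endfeet, was at 92.4, 34.2 and 42.5 CPM at day 2 and 394, 427 and 446 CPM at day 4. Its day 2 drug libraries lay under day 2 NC, so that the fitted change of 3.02 ± 0.27 (edgeR adjusted p = 1.8e-05) stood beside 2.09 in the NC pair and 2.36 without those libraries. Other astrocyte genes fell. Acsbg1, an acyl-CoA synthetase, was at 273, 397 and 377 CPM at day 2 and 127, 117 and 126 CPM at day 4, a change of -1.49 ± 0.13. Aldh1l1, a folate enzyme used as an astrocyte marker, was at 152, 193 and 177 CPM at day 2 and 83.4, 76.2 and 82.0 CPM at day 4, a change of -1.11 ± 0.10. For both genes every day 4 library lay below every day 2 library, and the NC pair gave -1.10 and -0.87. Fgfr3, a growth factor receptor, changed by -0.78, Atp1b2, a sodium pump subunit, by -0.43, and Fabp7, a fatty acid binding protein of radial glia, by -0.83. The falls of Aldoc (-0.27), Itih3 (-0.34) and Hepacam (-0.21) were small and lost the call without the day 2 drug libraries.

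**Figure D3:**
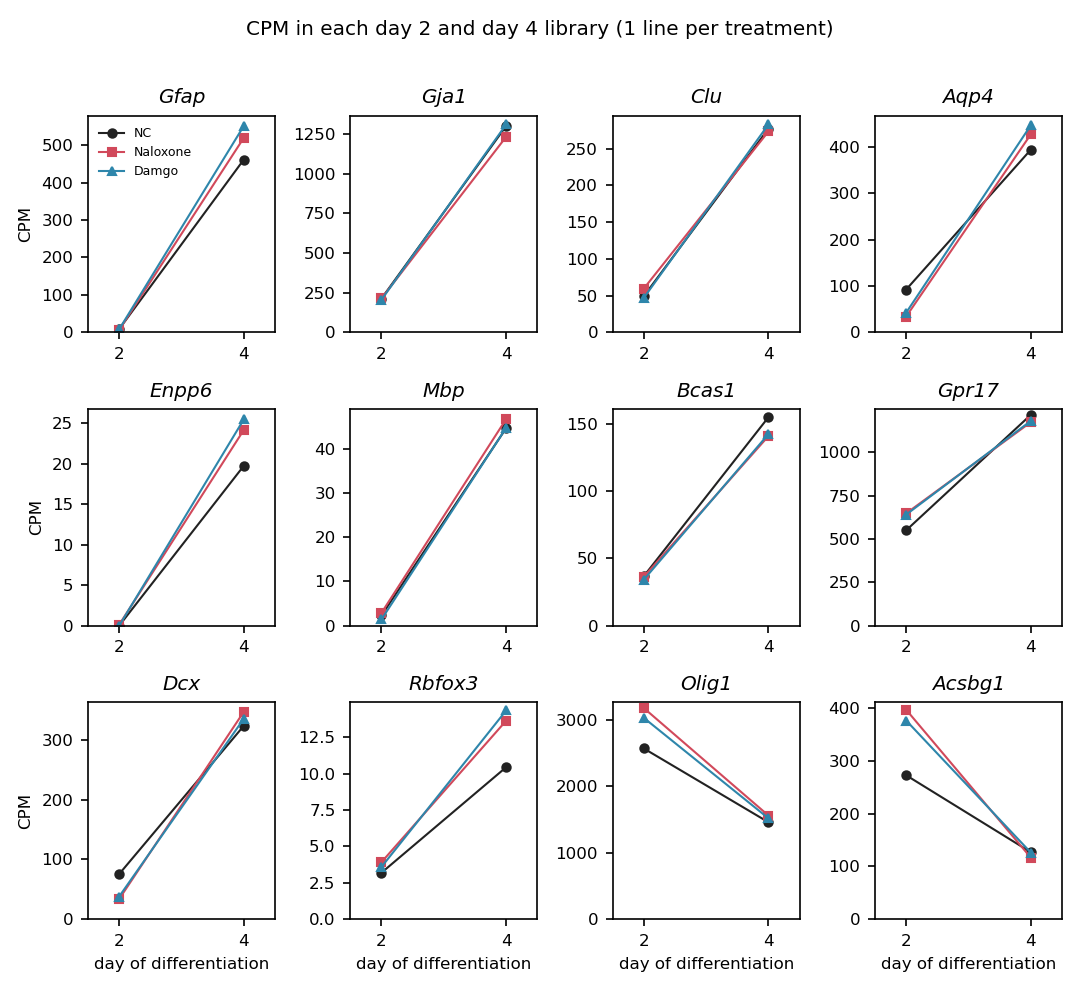
CPM (vertical axis, from 0, own scale per gene) at day 2 and day 4 (horizontal axis) for 12 lineage genes, with 1 line per treatment and no error bars because each point is 1 library. Gfap, Gja1, Clu, Enpp6, Mbp and Bcas1 rise in all 3 treatments from closely placed day 2 values, while Olig1 and Acsbg1 fall.

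The oligodendrocyte lineage moved in both directions. In the precursor list 9 of 20 measured genes rose and 9 fell (7 and 9 without the day 2 drug libraries), with a median of 0.05. Sox10, a transcription factor of the whole lineage, was at 25.1, 31.3 and 30.3 CPM at day 2 and 59.4, 61.2 and 68.8 CPM at day 4, a change of 1.13 ± 0.11 (edgeR adjusted p = 3.2e-05). Olig2, which specifies the lineage, was at 862, 1011 and 944 CPM at day 2 and 654, 667 and 647 CPM at day 4, a change of -0.52 ± 0.07. Both genes had separate day 2 and day 4 ranges, in opposite directions. Pdgfra, the receptor that drives precursor division, was at 342, 309 and 317 CPM at day 2 and 554, 541 and 582 CPM at day 4, a change of 0.79 ± 0.07. Gpr17, a receptor of precursors that are about to differentiate, was at 550.1, 648 and 641 CPM at day 2 and 1216, 1174 and 1181 CPM at day 4, a change of 0.96 ± 0.10.

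Among the other precursor genes, C1ql1, a secreted C1q-like protein, was at 11.3, 19.3 and 12.9 CPM at day 2 and 60.4, 62.0 and 62.5 CPM at day 4, a change of 2.09 ± 0.17, and Neu4, a sialidase, changed by 1.77 ± 0.21. Xylt1, which starts chondroitin sulfate chains, was at 118, 111 and 108 CPM at day 2 and 48.8, 41.5 and 46.3 CPM at day 4, a change of -1.31 ± 0.09. These 3 genes changed by a like amount in the NC pair (2.38, 1.82 and -1.27). Vcan, a proteoglycan of the matrix, was at 131, 34.5 and 50.2 CPM at day 2 and 231, 270.3 and 251 CPM at day 4, and Tnr, the matrix glycoprotein tenascin-R, at 589.8, 249 and 298 CPM at day 2 and 743, 862 and 785 CPM at day 4. In both the day 2 drug libraries were under day 2 NC, and the fitted changes of 1.97 and 1.14 stood beside 0.82 and 0.33 in the NC pair. Tnr was not called without the day 2 drug libraries.

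Genes of newly formed oligodendrocytes rose in 9 of 17 measured members and fell in 4, with a median of 0.57 (8 and 4 without the day 2 drug libraries). Enpp6, a choline phosphodiesterase that marks this stage, lies on mouse chromosome 8, at 46986887 to 47096762 on the plus strand of mm10. It had 1 expected count over the 3 day 2 libraries and 360 over the 3 day 4 libraries, a ratio of 465 with a 95% counting interval of 83.0 to 18430. In CPM, day 4 was 19.7, 24.2 and 25.5. Myrf, the transcription factor of myelin genes, was at 5.66, 5.69 and 7.54 CPM at day 2 and 32.7, 33.4 and 31.5 CPM at day 4, a change of 2.38 ± 0.19 (edgeR adjusted p = 8.5e-06). Bcas1, a protein of early myelinating cells, was at 36.8, 36.4 and 34.3 CPM at day 2 and 155, 141 and 142 CPM at day 4, a change of 2.03 ± 0.09, with 2.06 in the NC pair. Nfasc, the adhesion molecule neurofascin, changed by 1.67 ± 0.10 and Tcf7l2, a Wnt pathway transcription factor, by 0.99 ± 0.13.

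Bmp4, named after its values were seen, had 0 counts at day 2 and 48 at day 4, at least 20.7-fold higher when 3 counts stand in for the day 2 total. Against the rest of the list, Cnp, a myelin-associated phosphodiesterase, was at 529, 586 and 612 CPM at day 2 and 241, 262 and 251 CPM at day 4, a change of -1.19 ± 0.07, and the NC pair gave -1.13. Mycl, a Myc family factor, changed by -0.77 ± 0.09, Fyn, a Src family kinase, by -0.28 ± 0.05 and Frmd4a by -0.25 ± 0.09. Frmd4a was not called without the day 2 drug libraries.

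Myelin genes rose in 8 of 11 measured members, with a median of 2.34, 1.93 in the NC pair and 7 of 11 called without the day 2 drug libraries. Mbp was at 2.32, 2.91 and 1.44 CPM at day 2 and 44.6, 46.7 and 44.7 CPM at day 4, a change of 4.30 ± 0.18 (edgeR adjusted p = 2.6e-07), and 4.08 in the NC pair. Cntn2, an axonal and glial adhesion molecule, changed by 3.49 ± 0.25, and Fa2h, which hydroxylates myelin lipids, by 2.53 ± 0.28. Ugt8a, which makes galactosylceramide, was at 6.53, 4.68 and 3.77 CPM at day 2 and 25.9, 24.4 and 25.9 CPM at day 4, a change of 2.34 ± 0.18, and Cldn11, the claudin of myelin, changed by 1.81 ± 0.33. Plekhb1 fell, from 204, 239 and 238 to 131, 136 and 133 CPM, a change of -0.76 ± 0.10. Genes of late myelin stayed under the filter on low counts, with totals of 3 and 9 counts at day 2 and day 4 for Mog, 0 and 2 for Mobp and 4 and 11 for Opalin.

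Pdgfrb, the receptor known from pericytes, had 1 of the largest rises of all. It was at 3.63, 5.05 and 4.31 CPM at day 2 and 103, 103 and 102 CPM at day 4, a change of 4.57 ± 0.18 (edgeR adjusted p = 2.0e-07), with closely placed values at each day and 4.71 in the NC pair. Of 10 mesenchyme and pericyte markers, 4 were measured and 2 rose, Pdgfrb and Pdgfra. Acta2 and Tagln were measured and not called, and all 4 had a higher value at day 4 in the NC pair. The list's summed level was 321 to 351 CPM at day 2 and 654 to 691 CPM at day 4, most of it from Pdgfra. The other markers stayed under the filter on low counts. Rgs5 had 1 count over the day 2 libraries and 7 over the day 4 libraries, and Myh11 17 and 14. Abcc9 had 1 and 3, Dcn 0 and 3, Lum 0 and 1, and Kcnj8 none in any of the 6 libraries.

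Young neuron genes rose in 13 of 26 measured members and fell in 3, with a median of 0.58. The median was 0.28 in the NC pair, and without the day 2 drug libraries 9 rose and 1 fell. Dcx, a microtubule protein of migrating neuroblasts, was at 75.3, 33.5 and 37.7 CPM at day 2 and 323, 347 and 335 CPM at day 4, a change of 2.84 ± 0.24 (edgeR adjusted p = 1.2e-05), and 2.10 in the NC pair. Rbfox3, the nuclear marker NeuN, was at 3.19, 3.92 and 3.59 CPM at day 2 and 10.5, 13.7 and 14.4 CPM at day 4, a change of 1.83 ± 0.15 and 1.61 in the NC pair. In both genes the day 2 and day 4 ranges were far apart. Igfbpl1 changed by 2.03 ± 0.22, Neurod1, a neuronal transcription factor, by 2.77 ± 0.34, Elavl3, an RNA-binding protein of neurons, by 1.79 ± 0.20, and Celf4, a splicing regulator, by 2.48 ± 0.36.

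The neuronal tubulin Tubb3 was at 85.0, 117 and 109 CPM at day 2 and 108, 110.1 and 106 CPM at day 4, and its ranges overlapped. Its fitted change of 0.07 ± 0.10 did not pass the test (edgeR adjusted p = 0.591), and without the day 2 drug libraries it was 0.36. Dlx2, a homeobox factor of the ganglionic eminences, changed by -1.53 ± 0.29 and was not called without the day 2 drug libraries. Myt1, a zinc finger factor of young neurons and precursors, fell from 319.6, 246 and 286 to 193, 194 and 199.8 CPM, a change of -0.53 ± 0.08.

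Synaptic and receptor genes rose in 16 of 33 members and fell in 5, but without the day 2 drug libraries 6 rose and 1 fell, and the median of 0.56 was 0.21 in the NC pair. The number that fell was 8 without day 2 NC and 2 without day 4 Damgo. Syt1, the calcium sensor of vesicle release, was at 20.2, 14.3 and 16.2 CPM at day 2 and 49.9, 54.2 and 50.5 CPM at day 4, a change of 1.62 ± 0.12 (edgeR adjusted p = 4.6e-06), and 1.29 in the NC pair. Grik2, a kainate receptor subunit, was at 26.3, 14.4 and 14.9 CPM at day 2 and 45.1, 43.4 and 41.4 CPM at day 4, a change of 1.26 ± 0.16, and 0.77 in the NC pair. Gria2, the AMPA receptor subunit that limits calcium entry, was at 249, 74.6 and 82.6 CPM at day 2 and 301, 442 and 293 CPM at day 4. All day 4 values were above the day 2 values, but the NC pair gave only 0.28. The fitted change of 1.53 was not called without the day 2 drug libraries. The same loss of the call held for Nlgn1, a postsynaptic adhesion molecule (1.30, and 0.30 in the NC pair), for Snap25, a vesicle fusion protein (1.60 and 0.96), and for Grin2b, an NMDA receptor subunit (1.26 and 0.90). Of the genes that fell, Nlgn3, a synaptic adhesion molecule, changed by -0.49 ± 0.08 and stayed called, while the scaffold Dlg4 (-0.44) and the adhesion genes Nrxn2 (-0.32) and Nlgn2 (-0.27) did not.

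Of 16 measured stem and progenitor genes 9 fell and 4 rose, with a median of -0.56 (8 and 2 without the day 2 drug libraries). Nes, the intermediate filament of neural progenitors, was at 485, 378 and 415 CPM at day 2 and 180.0, 183 and 194 CPM at day 4, a change of -1.20 ± 0.12 (edgeR adjusted p = 4.3e-05), and -1.43 in the NC pair. Sox2, the transcription factor that marks neural stem cells, was at 558, 512 and 546 CPM at day 2 and 514, 549.7 and 518 CPM at day 4. Its ranges overlapped and the change of -0.03 ± 0.06 did not pass the test (edgeR adjusted p = 0.706). Igf2bp3, an RNA-binding protein of growing cells, was at 121, 84.4 and 88.1 CPM at day 2 and 37.8, 34.5 and 37.3 CPM at day 4, a change of -1.41 ± 0.10, and Igf2bp2 changed by -0.79 ± 0.14. Cd44, a hyaluronan receptor, changed by -1.44 ± 0.14 and Lhx2, a cortical homeobox factor, by -0.81 ± 0.08. Prom1, the surface protein CD133, rose from 11.2, 9.86 and 11.8 to 22.9, 24.9 and 31.7 CPM, a change of 1.27 ± 0.13. Pax6, a factor of radial glia, changed by 0.75 ± 0.09, while Nr2e1 (0.55) was called higher only with the day 2 drug libraries in the fit.

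Cell cycle genes were lower at day 4, above all those of mitosis. Of 26 measured G2 and M phase genes 18 fell, with a median of -1.36, and in the NC pair the median was -1.72. Leaving out the day 2 drug libraries raised the count to 22. Ccnb1, the cyclin that drives entry into mitosis, was at 30.2, 43.0 and 32.8 CPM at day 2 and 6.14, 7.19 and 4.86 CPM at day 4, a change of -2.53 ± 0.14 (edgeR adjusted p = 9.8e-07). Cdc20, an activator of the anaphase-promoting complex, was at 17.4, 24.5 and 23.7 CPM at day 2 and 3.48, 4.24 and 3.94 CPM at day 4, a change of -2.49 ± 0.19, and its ubiquitin-conjugating enzyme Ube2c was at 19.7, 24.0 and 19.6 CPM at day 2 and 3.82, 4.06 and 3.24 CPM at day 4, a change of -2.49 ± 0.17. In these 3 genes day 4 lay wholly below day 2 and the pairs resembled each other. Ccnb2, a second mitotic cyclin, was at 9.43, 13.5 and 10.9 CPM at day 2 and 0.829, 2.40 and 2.78 CPM at day 4, a change of -2.55 ± 0.34. Aurkb and Plk1, kinases of chromosome segregation, changed by -2.91 ± 0.36 and -2.40 ± 0.19. Mki67, which encodes the Ki-67 antigen of cycling cells, was at 35.0, 13.8 and 16.9 CPM at day 2 and 10.3, 12.5 and 5.33 CPM at day 4. Its change was -1.16 ± 0.30 (edgeR adjusted p = 0.00932) and -1.73 in the NC pair, and both day 2 drug libraries lay far below day 2 NC.

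Promoters are shown for Ccnb2, Ube2c and Cdc20, which fell and which held the core letters of the CHR element, a motif known from cell cycle genes, before their start sites. The sequences are from RefSeq (GRCm38.p6, the same build as mm10), 5′ to 3′ on the gene's strand and end at the base before the start site, and capitals mark TTTGAA or its reverse complement. They cover chr9:70421555-70421804 (minus strand), chr2:164769779-164769928 (plus strand) and chr4:118437344-118437493 (minus strand).
Ccnb2: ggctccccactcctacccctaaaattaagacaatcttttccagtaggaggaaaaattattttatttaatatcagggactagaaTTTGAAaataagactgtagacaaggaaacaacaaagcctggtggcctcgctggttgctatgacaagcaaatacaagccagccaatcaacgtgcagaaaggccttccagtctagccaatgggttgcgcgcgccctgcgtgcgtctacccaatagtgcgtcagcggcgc
Ube2c: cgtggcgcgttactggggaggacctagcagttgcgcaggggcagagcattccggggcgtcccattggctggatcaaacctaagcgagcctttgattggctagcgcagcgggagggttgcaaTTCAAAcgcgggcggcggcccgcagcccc
Cdc20: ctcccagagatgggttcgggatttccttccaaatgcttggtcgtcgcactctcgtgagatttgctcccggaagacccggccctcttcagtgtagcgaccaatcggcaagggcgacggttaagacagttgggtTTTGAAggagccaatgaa
Searching both strands, 20 of 25 promoter windows of 23 list members (80.0%) held TTTGAA, beside 11.7% of the windows of all tested genes and 17.9% of all 32851 windows. A match is a description of the sequence only.

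Of 30 measured S phase genes 17 fell and 2 rose, with a median of -0.56 and -0.33 in the NC pair (12 and 1 without the day 2 drug libraries). Mcm2 and Mcm5, subunits of the replicative helicase, were called lower. Mcm2 was at 33.4, 42.3 and 39.7 CPM at day 2 and 13.1, 12.5 and 15.1 CPM at day 4, a change of -1.50 ± 0.10, and Mcm5 changed by -1.48 ± 0.14. Rrm2, the ribonucleotide reductase subunit that supplies deoxynucleotides, changed by -1.48 ± 0.15, Mcm10, a replication initiation factor, by -1.85 ± 0.27, and Chaf1b, a histone chaperone, by -1.70 ± 0.29. The exceptions were Pola1, the catalytic subunit of DNA polymerase alpha, with a rise of 1.44 and 0.80 in the NC pair, and Ccne2, cyclin E2, with 1.29. Ccne2 was not called without the day 2 drug libraries, where it changed by 0.50.

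Of 15 measured genes in the list of D cyclins, their kinases and CDK inhibitors 9 fell and 2 rose, 6 and 2 without the day 2 drug libraries. Ccnd2, the cyclin D2 gene, was at 229, 213 and 203 CPM at day 2 and 73.2, 60.9 and 70.9 CPM at day 4, a change of -1.66 ± 0.08 (edgeR adjusted p = 5.6e-07). Ccnd1, the cyclin D1 gene, was at 114, 117 and 103 CPM at day 2 and 45.0, 39.1 and 35.2 CPM at day 4, a change of -1.48 ± 0.08. Their partner kinases Cdk4 and Cdk6 changed by -0.82 ± 0.07 and -1.50 ± 0.30. Cdkn2b, which encodes the Cdk4 and Cdk6 inhibitor p15, was at 5.51, 5.69 and 3.59 CPM at day 2 and 28.5, 25.8 and 22.2 CPM at day 4, a change of 2.35 ± 0.18, and 2.30 in the NC pair. Rb1, the retinoblastoma protein gene, rose by 1.32, with 0.55 in the NC pair.

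ERK feedback genes had a median of -1.54, and -1.44 in the NC pair. Of 14 measured members 11 fell and 1 rose, and without the day 2 drug libraries 12 fell. Dusp6, the phosphatase that inactivates ERK, was at 49.3, 65.2 and 37.7 CPM at day 2 and 5.47, 4.24 and 6.02 CPM at day 4, a change of -3.27 ± 0.23 (edgeR adjusted p = 3.6e-06). Etv5, an ETS factor induced by FGF signalling, was at 146, 193 and 165 CPM at day 2 and 19.4, 19.9 and 20.4 CPM at day 4, a change of -3.07 ± 0.10 (edgeR adjusted p = 8.2e-08), and its relative Etv4 was at 39.3, 62.3 and 53.3 CPM at day 2 and 8.63, 4.98 and 6.02 CPM at day 4, a change of -2.95 ± 0.22. Spry4, a Sprouty inhibitor of the pathway, was at 38.0, 36.4 and 26.2 CPM at day 2 and 3.82, 4.24 and 4.17 CPM at day 4, a change of -3.04 ± 0.16. In all 4 genes each day 4 library lay below each day 2 library, and the NC pair gave -3.10, -2.89, -2.15 and -3.21. Spry1 changed by -1.71 ± 0.13 and Dusp5, a nuclear ERK phosphatase, by -2.22 ± 0.31. Etv1 went the other way, by 0.59, but the NC pair gave 0.08 and it was not called without the day 2 drug libraries.

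**Figure D4:**
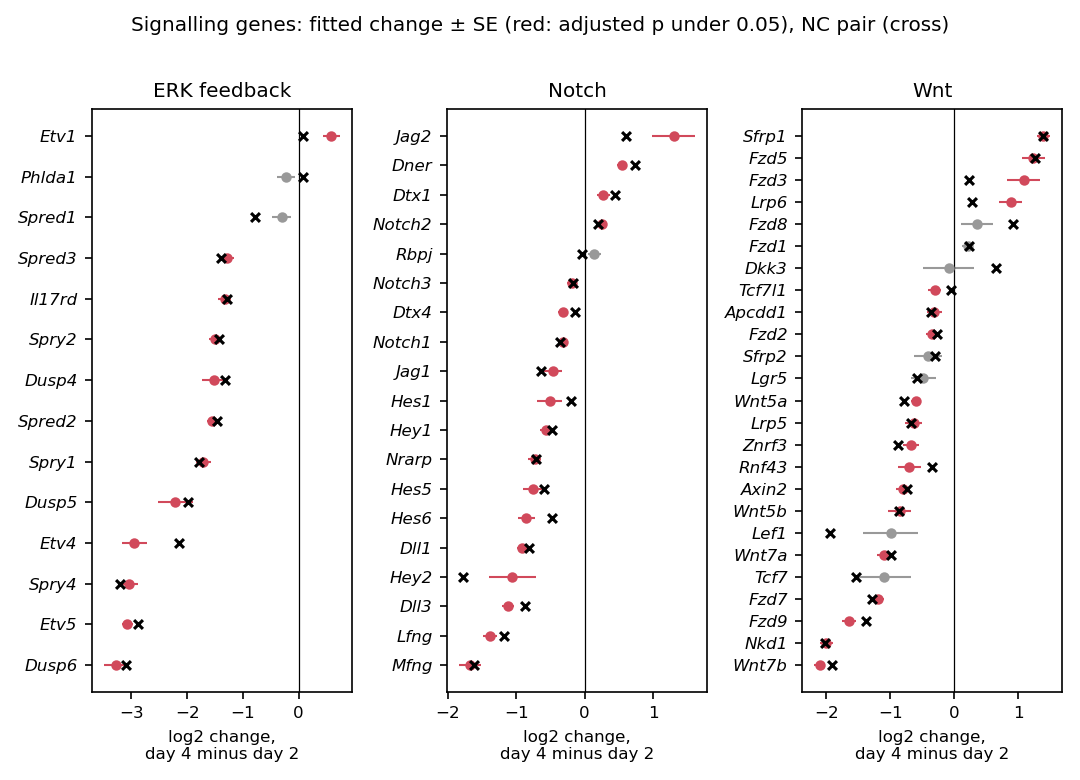
Fitted log2 change from day 2 to day 4 with its standard error (circles and bars, red where the edgeR adjusted p is under 0.05) and the NC pair (crosses) for the measured members of the ERK feedback, Notch and Wnt lists. Most ERK feedback members lie below -1, with the crosses close to the circles, while Etv1, Fzd3 and Lrp6 have crosses much nearer to 0.

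Immediate early genes, which answer growth factors and activity within minutes, moved both ways. Of 24 measured 7 rose and 8 fell, shares near the 27.1% and 24.8% of all tested genes. The counts were 7 and 5 without day 4 NC and 6 and 3 without day 4 Naloxone. With the GC and length trend against all libraries removed, 7 rose and 5 fell. The median of -0.37 was -0.12 without the day 2 drug libraries. Egr1, a zinc finger factor, was at 25.4, 32.6 and 19.2 CPM at day 2 and 7.96, 8.30 and 8.10 CPM at day 4, a change of -1.66 ± 0.16 (edgeR adjusted p = 3.1e-05), and Dusp1, a MAP kinase phosphatase, changed by -1.66 ± 0.17. Fos, a subunit of AP-1, was at 7.11, 8.47 and 7.36 CPM at day 2 and 14.6, 14.9 and 17.6 CPM at day 4, a change of 1.03 ± 0.12, and its partner Jun was at 94.8, 96.2 and 109 CPM at day 2 and 141, 160.5 and 146 CPM at day 4, a change of 0.58 ± 0.09. Egr1 and Fos thus moved in opposite directions in each of the 3 pairs. Nr4a3, an orphan nuclear receptor, changed by 1.26 ± 0.19, and Ier5 by 0.62 ± 0.09.

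In the Notch list 14 of 19 measured genes fell and 4 rose, with a median of -0.51. With TPM scaling 8 fell and 5 rose, and without the day 2 drug libraries 9 and 2. Leaving out day 2 Naloxone, day 4 NC or day 4 Damgo alone left 2 called higher. Of the ligands, Dll1 was at 262, 262 and 297 CPM at day 2 and 149, 137 and 147 CPM at day 4, a change of -0.92 ± 0.08 (edgeR adjusted p = 1.2e-05), and Dll3, which acts inside the cell, was at 214, 280.0 and 259.9 CPM at day 2 and 116, 119.5 and 110.0 CPM at day 4, a change of -1.12 ± 0.09. The Fringe enzymes, which add sugars to the receptors, fell with them. Lfng was at 136, 169 and 151 CPM at day 2 and 59.7, 60.7 and 54.2 CPM at day 4, a change of -1.38 ± 0.10, and Mfng changed by -1.67 ± 0.16. Hes5, a Notch target that holds back neuronal genes, was at 258, 305 and 350.5 CPM at day 2 and 171, 191 and 176 CPM at day 4, a change of -0.75 ± 0.14. Without the day 2 drug libraries Hes5 changed by -0.50 and was not called. Hes6, an inhibitor of Hes1, changed by -0.85 ± 0.12, and Hey2 by -1.06 ± 0.34, which also lost the call.

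Members of the Notch list that rose were Dner, a transmembrane ligand of neurons, at 259, 312 and 315 CPM at day 2 and 433, 429.8 and 428 CPM at day 4, a change of 0.55 ± 0.07, and the receptor Notch2 (0.25) and the regulator Dtx1 (0.27) by little. Notch2 was not called without the day 2 drug libraries, and correction for GC content and length turned it to -0.04 or -0.18. Jag2, a ligand named after its values were seen, was called higher at 1.30 and not called without those libraries.

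Wnt ligands, receptors and feedback genes fell in 14 of 25 measured members and rose in 4, with a median of -0.60 (10 and 3 without the day 2 drug libraries). Wnt7b, a ligand, was at 138, 159 and 142 CPM at day 2 and 36.5, 36.0 and 29.4 CPM at day 4, a change of -2.11 ± 0.09 (edgeR adjusted p = 2.3e-07). Nkd1, a feedback inhibitor induced by the pathway, was at 38.9, 44.1 and 40.7 CPM at day 2 and 9.29, 10.7 and 10.9 CPM at day 4, a change of -2.01 ± 0.10. The receptors Fzd9 and Fzd7 changed by -1.65 ± 0.11 and -1.20 ± 0.11. Axin2, the best known target gene, was named after its values were seen, and was at 38.0, 37.4 and 38.4 CPM at day 2 and 22.6, 22.5 and 20.1 CPM at day 4, a change of -0.80 ± 0.10. In the other direction, Sfrp1, a secreted antagonist of Wnt, was at 30.2, 32.7 and 28.0 CPM at day 2 and 79.8, 78.4 and 81.7 CPM at day 4, a change of 1.40 ± 0.11, and the receptor Fzd5 changed by 1.24 ± 0.17. The receptor genes Fzd3 (1.09) and Lrp6 (0.88) were called higher only with the day 2 drug libraries, and the NC pair gave 0.24 and 0.28.

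BMP pathway and Id genes gave a mixed picture. Of 21 measured, 11 rose and 5 fell, but without the day 2 drug libraries 5 rose and 6 fell, and leaving out 1 library at a time (day 2 Naloxone, day 2 Damgo, day 4 Naloxone or day 4 Damgo) left 6 or 7 called higher. With the GC and length trend removed, 6 or 7 rose and 6 or 8 fell. Id3, a dominant negative helix-loop-helix protein and a direct BMP target, was at 91.2, 102 and 106 CPM at day 2 and 22.6, 19.9 and 19.0 CPM at day 4, a change of -2.28 ± 0.12 (edgeR adjusted p = 9.1e-07). Id1 was at 17.3, 20.2 and 16.9 CPM at day 2 and 5.97, 6.09 and 5.56 CPM at day 4, a change of -1.62 ± 0.12. Id4, which holds back oligodendrocyte genes, was at 53.8, 37.2 and 44.7 CPM at day 2 and 95.6, 96.5 and 104 CPM at day 4, a change of 1.13 ± 0.12. Id1 and Id3 thus fell while Id4 rose, without overlap in any of them, and without the day 2 drug libraries they gave -1.49, -2.19 and 0.87. Bmp7, a ligand, was at 46.3, 52.8 and 47.7 CPM at day 2 and 17.3, 16.0 and 16.9 CPM at day 4, a change of -1.55 ± 0.09. Bmp6, a ligand named after its values were seen, had 1 count at day 2 and 50 at day 4, a ratio of 64.6 with a 95% counting interval of 11.1 to 2603. Nog, a secreted BMP antagonist, changed by 1.45 ± 0.22, Bmper, a modulator, by -0.69 ± 0.07 and Chrd, another antagonist, by -0.94 ± 0.20.

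Ribosomal protein genes fell together. Of 77 measured members 76 were called lower, with a median of -0.81, and 69 without the day 2 drug libraries, with -0.59. The remaining gene was Fau, named after its values were seen (-0.31, edgeR adjusted p = 0.260). With the GC and length trend against all libraries removed, 60 of the 77 members were called lower, with a median of -0.39. Their summed level was 43531 to 52317 CPM at day 2 and 27909.9 to 28630.3 CPM at day 4. Rpl28 was at 343, 411 and 392 CPM at day 2 and 176, 177 and 167 CPM at day 4, a change of -1.14 ± 0.08 (edgeR adjusted p = 3.0e-06). Rpl23a was at 859, 1044 and 998 CPM at day 2 and 429, 441 and 456 CPM at day 4, a change of -1.13 ± 0.09, and Rps16 was at 419, 490.1 and 482 CPM at day 2 and 234, 243 and 217 CPM at day 4, a change of -1.004 ± 0.08. In each of these genes day 2 NC was the lowest of the day 2 libraries and the day 4 libraries lay well below it. Rpl18 and Rpl11 changed by -1.02 and -1.02. RSEM divides reads shared with the many ribosomal protein pseudogenes, so single values in this family are uncertain.

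The promoters of Rpsa, Rpl27a and Rpl37 are shown because they held the letters of an ETS factor motif. These 3 genes changed by -0.94, -0.89 and -0.88, and other members of the family also held the motif. They cover chr9:120127516-120127765, chr7:109518945-109519194 and chr15:5116463-5116612, all on the plus strand of GRCm38.p6 (RefSeq), each ending before the start site, and capitals mark CCGGAAG or its reverse complement.
Rpsa: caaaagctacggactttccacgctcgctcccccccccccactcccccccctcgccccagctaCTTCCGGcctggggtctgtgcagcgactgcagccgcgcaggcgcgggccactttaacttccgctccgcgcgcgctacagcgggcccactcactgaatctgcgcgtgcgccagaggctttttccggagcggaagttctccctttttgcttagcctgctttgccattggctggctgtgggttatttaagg
Rpl27a: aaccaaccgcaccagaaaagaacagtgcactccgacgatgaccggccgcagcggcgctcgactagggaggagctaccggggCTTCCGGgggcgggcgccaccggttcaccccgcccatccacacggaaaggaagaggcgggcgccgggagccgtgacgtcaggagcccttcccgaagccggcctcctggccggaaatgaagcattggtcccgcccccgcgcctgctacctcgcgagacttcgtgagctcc
Rpl37: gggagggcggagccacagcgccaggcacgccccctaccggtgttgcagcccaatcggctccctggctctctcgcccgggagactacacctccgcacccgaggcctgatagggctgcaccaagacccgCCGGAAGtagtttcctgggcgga
On both strands, CCGGAAG was found in 25 of 67 promoter windows of 57 family members (37.3%), beside 17.0% of the windows of all tested genes and 8.86% of all windows.

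Genes for building ribosomes moved the other way. Of 25 measured genes of ribosome biogenesis and Myc 16 rose and 0 fell, with a median of 0.36 and 12 called higher without the day 2 drug libraries. In the NC pair all 25 had a higher value at day 4, although 2 fell without day 2 NC and 1 without day 4 NC in the fit. Myc itself was at 63.5, 55.7 and 59.9 CPM at day 2 and 99.2, 105 and 109 CPM at day 4, a change of 0.80 ± 0.07 (edgeR adjusted p = 2.2e-05), and 0.64 in the NC pair. Gnl3, nucleostemin, changed by 1.18 ± 0.16, with 0.72 in the NC pair. Nop58, of the box C/D particles, and Dkc1, of the box H/ACA particles, were called higher at 1.73 and 1.49, with 0.83 and 0.70 in the NC pair. Ncl, nucleolin, was at 378, 138 and 169.6 CPM at day 2 and 527, 546 and 509 CPM at day 4. Its call at 1.31 was lost without the day 2 drug libraries, where it changed by 0.58.

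Nuclear genes of oxidative phosphorylation were called lower in 61 of 74 members, with a median of -0.50, and none was called higher. The count was 24 without the day 2 drug libraries, with a median of -0.27, and 29, with 5 called higher, after a correction for GC content and length across all libraries. Atp5g2, of the rotor ring of ATP synthase, was at 246, 276 and 266 CPM at day 2 and 139.7, 152 and 137 CPM at day 4, a change of -0.88 ± 0.07 (edgeR adjusted p = 6.9e-06), and -0.82 in the NC pair, with no overlap between days. Ndufa6 and Ndufs8, of complex I, changed by -0.87 and -0.78, Uqcrh, of complex III, by -0.83 and Cox8a, of complex IV, by -0.81. The results for Ndufa6 and Cox8a were weaker with the GC and length trend against all libraries removed. Against a 1.5-fold change, 3 of the 74 members were called lower.

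**Figure D5:**
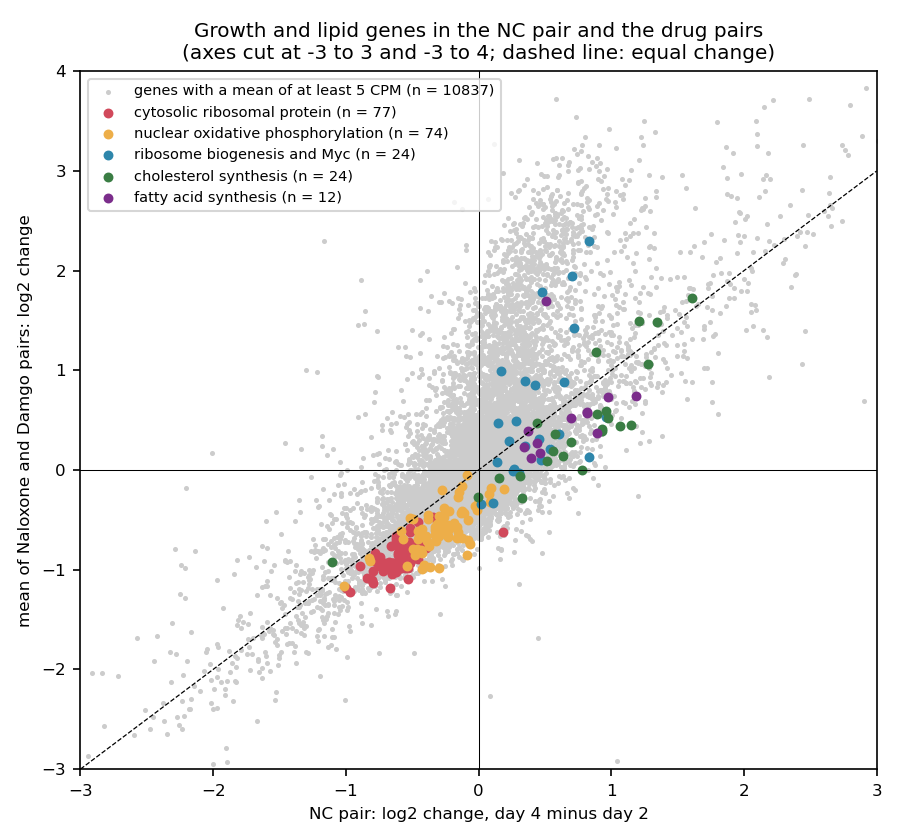
Log2 change from day 2 to day 4 in the NC pair (horizontal axis) and as the mean of the Naloxone and Damgo pairs (vertical axis) for 10837 genes with a mean of at least 5 CPM (grey) and 5 gene lists (colours), with 54 genes outside the axes. Ribosomal protein and oxidative phosphorylation genes gather at the lower left below the line of equal change, and cholesterol and fatty acid genes at the right.

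Genes of cholesterol synthesis rose in 17 of 24 measured members and fell in 1. Their median was 0.51, 0.83 in the NC pair, and 19 were called higher without the day 2 drug libraries. Without day 2 NC 3 fell. Their summed level was 3765 to 4289 CPM at day 2 and 7387 to 7879.8 CPM at day 4. Hmgcs1, which makes HMG-CoA, was at 1106, 1012 and 933 CPM at day 2 and 3374, 3167 and 3253 CPM at day 4, a change of 1.68 ± 0.18 (edgeR adjusted p = 5.4e-05). Sc5d, a late sterol desaturase, was at 50.6, 39.8 and 48.5 CPM at day 2 and 129, 112 and 137 CPM at day 4, a change of 1.44 ± 0.10. Lss, lanosterol synthase, was at 152, 177 and 180.2 CPM at day 2 and 369.6, 371 and 374 CPM at day 4, a change of 1.13 ± 0.10. In these 3 genes every day 4 library was well above every day 2 library, and the NC pair gave 1.61, 1.34 and 1.28. Idi1, an isomerase of the isoprenoid steps, changed by 1.40 ± 0.15 and Stard4, a sterol carrier, by 1.08 ± 0.12. Ebp, a sterol isomerase of the same pathway, was the exception at 11.5, 8.97 and 10.05 CPM at day 2 and 5.14, 4.24 and 5.56 CPM at day 4, a change of -1.03 ± 0.18.

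The promoter of Hmgcs1, the gene with the largest rise in the list, is shown because it held the sterol regulatory element TCACCCCAC (capitals). It covers chr13:119690201-119690350 on the plus strand of GRCm38.p6 (RefSeq) and ends before the start site.
Hmgcs1: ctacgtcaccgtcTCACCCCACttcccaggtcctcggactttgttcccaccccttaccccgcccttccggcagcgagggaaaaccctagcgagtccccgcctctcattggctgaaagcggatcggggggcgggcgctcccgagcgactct
It was the only 1 of 20 promoter windows of 17 list members with these exact letters on either strand (5.0%), beside 0.57% of the windows of all tested genes and 0.55% of all windows. Other motifs were searched the same way. ACAATGG, of SOX factors, was in 0 of 19 windows of newly formed oligodendrocyte genes and 0 of 12 of myelin genes, beside 2.03% for all tested genes. TGGGAA, of RBPJ, was in 5 of 18 windows of Notch genes (27.8%, beside 22.9%), and CAGCTG, an E-box, in 9 of 36 of young neuron genes (25.0%, beside 15.2%). TTTCCCGC, of E2F, was in 4 of 29 windows of S phase genes (13.8%, beside 1.97%), the palindromic NRF1 motif in 5 of 66 of oxidative phosphorylation genes (7.58%, beside 2.04%), and TGACGTCA, the CRE, in 2 of 23 of immediate early genes (8.70%, beside 3.09%).

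All 12 measured genes of fatty acid synthesis rose, also without the day 2 drug libraries, with a median of 0.56 and 0.60 in the NC pair. With the GC and length trend removed 7 were called. Scd2, the stearoyl-CoA desaturase of brain, was at 4800.4, 5665 and 5488 CPM at day 2 and 8438, 8133 and 8433 CPM at day 4, a change of 0.65 ± 0.07 (edgeR adjusted p = 5.2e-05). Scd1 was at 291, 368 and 352 CPM at day 2 and 663, 579.6 and 625 CPM at day 4, a change of 0.88 ± 0.11. Fads1 and Fads2, desaturases of polyunsaturated fatty acids, changed by 0.66 ± 0.07 and 0.81 ± 0.07, and Acaca, acetyl-CoA carboxylase, by 0.58 ± 0.07. Elovl6, an elongase, was at 89.3, 33.0 and 45.2 CPM at day 2 and 127, 125 and 127 CPM at day 4, and its fitted 1.26 stood beside 0.50 in the NC pair.

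In the list of glycolysis and hypoxia genes 13 of 25 fell and 5 rose (9 and 5 without the day 2 drug libraries). The median of -0.28 turned to 0.08 with the GC and length trend against all libraries removed. Pgk1, phosphoglycerate kinase, was at 529.6, 633 and 619 CPM at day 2 and 322, 308 and 329 CPM at day 4, a change of -0.89 ± 0.07 (edgeR adjusted p = 8.3e-06). Eno1, enolase, changed by -0.95 ± 0.10, Tpi1, triosephosphate isomerase, by -0.89 ± 0.11 and Egln3, an oxygen sensor enzyme, by -0.91 ± 0.14. The glucose transporter Slc2a1 rose instead, from 15.5, 20.0 and 16.3 to 30.0, 30.6 and 30.1 CPM, a change of 0.81 ± 0.11. The phosphofructokinase genes Pfkp and Pfkl changed by 0.85 ± 0.12 and 0.54 ± 0.14, and Pdk1, which inhibits pyruvate dehydrogenase, by 0.53 ± 0.08.

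Matrix and integrin genes rose in 7 of 24 measured members and fell in 10, where 27.1% of all tested genes rose and 24.8% fell. The median of -0.16 was -0.43 without the day 2 drug libraries. Fn1, fibronectin, was at 6.82, 6.95 and 6.64 CPM at day 2 and 38.0, 34.7 and 39.6 CPM at day 4, a change of 2.46 ± 0.24 (edgeR adjusted p = 3.6e-05). Thbs1, thrombospondin 1, was at 6.67, 8.21 and 5.02 CPM at day 2 and 43.3, 41.7 and 50.7 CPM at day 4, a change of 2.76 ± 0.25. Col9a1, a collagen of cartilage-type matrix, changed by 3.39 ± 0.32 and Col16a1 by 1.54 ± 0.11. Of 9 collagen IV and laminin genes in the list, a subset chosen after the values were seen, 7 fell, and Col4a1 was at 93.3, 86.4 and 86.5 CPM at day 2 and 34.7, 35.6 and 35.0 CPM at day 4, a change of -1.34 ± 0.09. Nid1, another basement membrane gene, rose by 0.87. Itgb8, an integrin that activates TGF-beta, was at 411, 92.6 and 139 CPM at day 2 and 435, 521 and 491 CPM at day 4. Its call at 1.39 was lost without the day 2 drug libraries, where it changed by 0.36.

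The list for ATF4 and the unfolded protein response had 6 of 22 members higher and 3 lower, and 6 and 6 without day 2 NC. Over all tested genes 27.1% rose and 24.8% fell. The median of -0.02 was 0.18 without the day 2 drug libraries. Slc7a11, the cystine transporter, was at 35.2, 23.9 and 22.1 CPM at day 2 and 82.3, 81.0 and 77.8 CPM at day 4, a change of 1.58 ± 0.14 (edgeR adjusted p = 1.9e-05), and Slc7a5, a transporter of large amino acids, was at 109.9, 129 and 127 CPM at day 2 and 207, 218 and 229 CPM at day 4, a change of 0.84 ± 0.06. Dnajb9, a chaperone partner of the endoplasmic reticulum, changed by 0.82 ± 0.12 and Calr, calreticulin, by -0.60 ± 0.10. Of 18 measured interferon and MHC class I genes 2 rose and 6 fell, and 1 rose without day 2 NC, day 4 NC or day 4 Damgo. Their median was -0.24, and -0.47 without the day 2 drug libraries, where fewer of these genes were called lower. B2m, the light chain of MHC class I, was at 58.7, 51.7 and 52.4 CPM at day 2 and 27.7, 24.5 and 29.9 CPM at day 4, a change of -0.996 ± 0.15, and the heavy chain H2-D1 changed by -1.01 ± 0.14. Ifitm3, a membrane protein against virus entry, was at 5.37, 8.21 and 8.79 CPM at day 2 and 1.82, 1.84 and 1.39 CPM at day 4, a change of -2.08 ± 0.22, while Gbp2, a guanylate-binding protein, changed by 1.13 ± 0.20.

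Of 15 measured genes of DNA methylation and demethylation 7 rose and 3 fell, 2 and 1 without the day 2 drug libraries, and 4 rose when day 2 Naloxone, day 2 Damgo or day 4 Naloxone was left out. Uhrf1, which brings the maintenance methyltransferase to replicated DNA, was at 19.4, 29.1 and 29.3 CPM at day 2 and 8.79, 8.67 and 8.10 CPM at day 4, a change of -1.58 ± 0.14 (edgeR adjusted p = 1.6e-05). Gadd45b, a stress gene linked to demethylation, changed by 1.43 ± 0.29 and Gadd45a by 0.83 ± 0.20. Tet1 and Tet2, which oxidise methylcytosine, were called higher at 1.45 and 1.06. Tet2 was at 72.8, 20.3 and 25.5 CPM at day 2 and 75.3, 79.7 and 72.2 CPM at day 4, so that day 2 NC was at the level of day 4. Neither Tet1 nor Tet2 was called without the day 2 drug libraries.

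Receptors for the drugs were looked for as well. Oprm1, Oprd1 and Oprk1, the mu, delta and kappa opioid receptors, had 0 counts in all 6 libraries, which allows up to 0.379 to 0.695 CPM per library. Oprl1, the related nociceptin receptor, was at 17.4, 20.5 and 19.2 CPM at day 2 and 29.2, 23.4 and 24.8 CPM at day 4, a change of 0.44 ± 0.13 (edgeR adjusted p = 0.0145). Its call was lost when the NC library of day 2 or of day 4 was left out, where the largest adjusted p was 0.091. Ogfr, the opioid growth factor receptor, was at 156, 177 and 179.6 CPM at day 2 and 119.9, 117 and 109.5 CPM at day 4, a change of -0.57 ± 0.08. Of 4 measured genes of this list 2 rose and 1 fell (1 and 1 without the day 2 drug libraries or without the day 4 Naloxone library). The other that rose, Pdyn, the precursor of dynorphins, went from 2 to 13 counts, a ratio of 8.40 with a 95% counting interval of 1.90 to 76.7. Among the other precursors, Penk had 0 counts over the day 2 libraries and 1 over the day 4 libraries, Pnoc 1 and 2, and Pomc 17 and 5.

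Other genes with the largest rises were of several kinds. Padi2, a peptidylarginine deiminase of glia, was at 7.25, 5.18 and 7.36 CPM at day 2 and 165, 170.5 and 187 CPM at day 4, a change of 4.73 ± 0.12 (edgeR adjusted p = 3.1e-08). Cntf, ciliary neurotrophic factor, was at 0.725, 0.758 and 0.718 CPM at day 2 and 15.8, 20.1 and 17.1 CPM at day 4, a change of 4.54 ± 0.23. Slc39a12, a zinc transporter, was at 3.77, 5.31 and 4.67 CPM at day 2 and 53.7, 56.1 and 55.1 CPM at day 4, a change of 3.58 ± 0.13. For these the NC pair gave 4.45, 3.93 and 3.72, and no day 4 value overlapped day 2. The adhesion molecule Cntnap2 changed by 3.96, the RNA-binding protein Khdrbs2 by 4.03, phosphorylase kinase subunit Phkg1 by 4.04, and the kinase Map3k19 by 3.81. Synpo2, of actin bundles, changed by 3.86 and Fam184b by 3.65. The guidance genes Sema3d and Epha3 had day 2 drug libraries below day 2 NC, and gave 3.86 and 3.83 in the fit beside 2.57 and 2.77 in the NC pair.

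Among the largest falls were genes of the matrix and the cytoskeleton. Fbln2, fibulin 2, was at 47.1, 33.0 and 34.1 CPM at day 2 and 2.49, 1.11 and 1.85 CPM at day 4, a change of -4.36 ± 0.22 (edgeR adjusted p = 7.1e-07). Lgals1, galectin 1, was at 34.4, 32.2 and 33.6 CPM at day 2 and 2.99, 2.95 and 4.40 CPM at day 4, a change of -3.30 ± 0.15. Col18a1, the collagen that yields endostatin, changed by -3.47 ± 0.23, and Actc1, cardiac alpha actin, by -3.78 ± 0.35. Kcnmb4, a subunit of BK potassium channels, was at 151, 211 and 196 CPM at day 2 and 23.2, 22.1 and 21.1 CPM at day 4, a change of -3.05 ± 0.12, and Htr3a, a serotonin-gated channel, changed by -3.38 ± 0.30. Cacng5, a subunit that goes with AMPA receptors, changed by -3.09, and Upp1, uridine phosphorylase, by -3.45. Pimreg and Knstrn, of mitotic chromosomes, changed by -3.57 and -3.03, Tmem176a by -3.35 and Synpo2l by -3.16. The 15 largest falls and the 15 largest rises were chosen to move alike in all pairs, the NC pair included. That they kept their direction without the day 2 drug libraries follows from this choice.

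Markers of microglia and endothelium were near 0. None of 10 microglia markers passed the filter, with a summed level of 0.580 to 1.26 CPM at day 2 and 0 to 1.66 CPM at day 4 and 4 of them at 0 in all 6 libraries. Of 9 endothelial markers 1, Kdr, was measured and not called, and Cdh5, Cldn5 and Tie1 were at 0. Pou5f1, the pluripotency factor of the reporter, had no count. Of 8 Schwann and neural crest markers 4 were measured, 1 rose and 1 fell, and the list's summed level was 14.5 to 15.9 CPM at day 2 and 17.7 to 24.3 CPM at day 4. Of 10 ependyma markers 4 were measured, and Foxj1, the factor of motile cilia, was at 25.7, 29.2 and 31.9 CPM at day 2 and 42.6, 46.5 and 49.8 CPM at day 4, a change of 0.68 ± 0.11. Cfap43 of the same list changed by -1.05, Ccdc39, which lost its call without the day 2 drug libraries, by 2.63, and the list summed to 41.7 to 44.3 CPM at day 2 and 58.2 to 63.9 CPM at day 4.

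Whether the change from day 2 to day 4 differed between the drug pairs and the NC pair was tested with an interaction term. The NC side is 1 library a day, and the 3 residual degrees of freedom come from the differences between Naloxone and Damgo libraries, so the test assumes that NC libraries vary like those and covers no spread of their own. The term was called for 1273 of 13144 genes (9.69%), with 1243 changing more upward in the drug pairs and 30 more downward. The 1243 genes had a median GC content of 43.3%, beside 50.5% over all tested genes, and a median length of 4614 bases, beside 2670. Their median change was 0.26 in the NC pair, 1.84 in the Naloxone pair and 1.45 in the Damgo pair. Washc4, of the endosomal WASH complex, was at 73.5, 18.4 and 19.4 CPM at day 2 and 86.8, 106 and 96.3 CPM at day 4, a difference of 2.19 ± 0.19 (edgeR adjusted p = 0.00191). Appl1, an endosomal adaptor, was at 91.8, 21.99 and 25.5 CPM at day 2 and 134, 129.5 and 146 CPM at day 4, a difference of 1.99 ± 0.19. In both genes the 2 day 2 drug libraries were far below day 2 NC and the day 4 libraries lay close together. Among the 30, Fdps, farnesyl diphosphate synthase, was at 102, 171 and 161 CPM at day 2 and 175, 160.5 and 173 CPM at day 4, a difference of -0.78 ± 0.16. Here day 2 NC was the low library and the other 5 were alike. Tuba1c, an alpha tubulin, was at 44.4, 73.3 and 78.1 CPM at day 2 and 81.5, 79.1 and 79.7 CPM at day 4, a difference of -0.80 ± 0.18. Cdca8, of the chromosomal passenger complex, was at 18.3, 23.5 and 25.3 CPM at day 2 and 5.97, 2.58 and 1.85 CPM at day 4, a difference of -1.81 ± 0.37, and fell in each pair.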

How the data were processed

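RNA was extracted with Trizol and libraries were made from total RNA with a TruSeq kit, per the labels' protocols. The authors deposited RSEM expected counts per gene, estimated from Bowtie alignments to mm10 per the submitters' processing notes. For tool versions, settings and strand, nothing is given in the sources used here. TPM values, which the authors also deposited and RSEM scales by transcript length and library, served only for an alternative scaling. Expected counts, not whole for 10.4% to 12.4% of genes in the 6 libraries, were rounded.

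The 12 libraries of the drug experiment (undifferentiated, day 2, day 4, day 8) entered 1 edgeR (4.0.16, R 4.3.3) quasi-likelihood fit with stage and treatment as additive terms, TMM scaling and the filterByExpr filter by stage. Day 4 minus day 2 was tested over 13144 genes with Benjamini-Hochberg adjustment at 0.05. The fit has 6 residual degrees of freedom, shared with the other stages, and the interaction fit has 3. The NC pair was compared by the log2 ratio of CPM with a prior count of 2, and 2-fold with a mean of 5 CPM counted as a change. DESeq2 (1.42.0), limma (3.58.1) and mgcv (1.9.3, for the trend with GC content and length) gave alternatives. Only the additive edgeR fit was run on simulated counts, drawn from its own fitted means. That simulation does not bear on the GC and length shift of the day 2 drug libraries or on the other fits. Treatment is a block by the comparison's own rule. Deviations of day 2 and day 4 libraries of the same treatment correlated at -0.14 (NC), -0.18 (Naloxone) and 0.11 (Damgo).

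Members and lists were chosen with earlier results of these data known. Named genes are the 15 largest called rises and falls with a mean of at least 5 CPM that moved alike in all 3 pairs, leaving out predicted names (2 and 1 skipped), in each list the 6 called members of largest change plus those against its majority, a fixed set of pathway genes, and the 5 interaction genes each way with the smallest p and a mean of at least 5 CPM. Of 29713 gene IDs 29202 matched GENCODE M21, which gave GC content. Length is the mean over libraries of the gene length deposited with the RSEM values. Promoters are RefSeq windows on GRCm38.p6, from 250 bases before to 50 after each start. RSEM divides reads shared by paralogs and pseudogenes. Intervals of count ratios cover counting error only. The 2 reference cultures and mitochondrial genes were not analysed here, and some genes that the rule names are not reported here.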

Additional observations from a re-analysis of the deposited data

Results flagged for a closer look

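The change from day 2 to day 4 differed between the drug pairs and the NC pair, by edgeR's interaction test, for 1273 of 13144 genes. Values below are log2 differences, the mean of the Naloxone and Damgo pairs minus the NC pair, and each passed that test at an adjusted p under 0.05. The test takes its spread from the Naloxone and Damgo libraries and assumes that the single NC libraries vary alike. The 2 day 2 drug libraries follow GC content and length as described above, and with that trend removed 901 genes passed.

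Among lineage genes the differences were 1.83 for Vcan, 1.27 for Tnr, 1.43 for Aqp4, 1.17 for Dcx, 1.90 for Celf4, 1.04 for Elavl3, 1.96 for Gria2, 1.61 for Nlgn1 and 2.23 for Sema3d. Among genes of the cell cycle and nucleolus they were 1.74 for Ccne2, 1.23 for Rb1, 1.48 for Nop58, 1.28 for Dkc1 and 1.31 for Ncl. In the signalling lists they were -1.22 for Etv4, 0.79 for Etv1, 1.37 for Fzd3 and 0.95 for Lrp6.

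In the other lists they were 1.21 for Elovl6, -0.50 for Calr, 1.06 for Col11a1, 2.08 for Itgb8, 1.43 for Tet1, 1.70 for Tet2 and 3.63 for Ccdc39. Of the genes with the smallest p and a mean of at least 5 CPM, upward differences were 2.19 for Washc4, 1.99 for Appl1, 1.97 for Map3k2, 1.88 for Cntrl and 1.93 for Rfx3, and downward differences were -0.78 for Fdps, -1.81 for Cdca8, -0.80 for Tuba1c and -0.73 for Aacs.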

How the results depend on the processing

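Counts of called genes stayed within 1.5 times of 6824 (3564 higher and 3260 lower) with DESeq2 size factors (6790, 3585 and 3205), DESeq2 (5856, 3220 and 2636), limma-voom (7014, 3713 and 3301), no filter on low counts (6577, 3449 and 3128), no replicate block (6805, 3437 and 3368), and either removal of the GC and length trend (6544 and 6273). Fewer genes were called with the 6 libraries of both days alone (4295, 2137 and 2158). The count was also lower with the day 2 drug libraries left out (2972, 1347 and 1625). Against a 1.5-fold change, a stricter null, it was 1948 (1235 and 713). Whether the smaller number of libraries or the GC and length shift lowered the count without the day 2 drug libraries was not tested. Leaving out day 2 NC alone raised the count to 7762. Genes called lower numbered 1724 with TPM scaling and 1565 with limma on log2 TPM. The similar totals after removal of the GC and length trend hide a turnover of genes. Against NC of the stage, 1345 of the 6824 calls were lost and 208 genes changed sign. Against all libraries, 2111 calls were lost and 652 genes changed sign. Leaving out 1 library at a time gave 4962 to 7762 called genes, 2560 to 4039 higher and 2401 to 3723 lower. The NC pair had 154 genes higher and 138 lower at 3-fold. The interaction count of 1273 was 901 after removal of the GC and length trend, 1108 with DESeq2 size factors and 1765 with no filter.

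Of the named genes, 3 changed sign under an alternative. These were the log2 change of Hepacam with TPM scaling (0.0101) and limma on log2 TPM (0.00934), the log2 change of Itih3 with limma on log2 TPM (0.0376) and the log2 change of Notch2 with the GC and length trend removed against NC of the stage (-0.0378) or against all libraries (-0.18). The cause was not tested. Leaving out 1 library at a time ended the call of Aldoc, Ccne2, Dtx1, Etv1, Fabp7, Frmd4a, Hepacam, Hey2, Itgb8, Itih3, Nlgn2, Notch2, Nrxn2, Oprl1 and Tet2 for at least 1 of the 6 libraries. Each condition is 1 library, and counts of a few reads, as for Enpp6 or Bmp4 at day 2, leave ratios with wide intervals.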
